A study of Mus musculus with 20 samples.

Results

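Breakdown of purines to urate and allantoin, with the transporters that carry urate across cell membranes, was followed in the livers of mice with diet-induced steatohepatitis through 8 genes: the urate transporter genes Slc22a12 and Slc2a9, the oxidase genes Xdh, Aox1 and Aox3, the urate breakdown genes Uox and Urad, and the purine nucleoside phosphorylase gene Pnp. The genes were chosen from this pathway with earlier results of the same S217879 and vehicle livers known, so their differences between the groups are a description; calls by limma, fitted over all genes, are counted for them beside the share of all genes, and nothing is read from those counts. Of the 8, 7 were matched to a row of the table of 49315 genes by gene symbol, and Pnp was matched to none. In the first group, 10 mice received S217879 by mouth once a day at 30 mg/kg, a compound that the submitters present as a disruptor of the binding between the transcription factor NRF2 and its repressor KEAP1. In the second group, 10 mice received the vehicle, 1% hydroxyethylcellulose (HEC). All 20 mice had diet-induced obesity with steatohepatitis (DIO-NASH) and stayed on the AMLN diet (high in fructose, cholesterol and fat), and both groups were dosed for 8 weeks. The labels used here give no strain, sex or age, and there was no lean group, so every value is from a diseased liver.

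Purine nucleosides are cut to free bases by the phosphorylase encoded by Pnp, and xanthine dehydrogenase, the product of Xdh, oxidises hypoxanthine to xanthine and xanthine to urate. In mice urate oxidase (Uox) turns urate into an unstable product that 2 further enzymes, encoded by Urah and Urad, convert to allantoin, whereas humans lack a working urate oxidase and excrete urate. Aldehyde oxidases (Aox1 and Aox3) are relatives of xanthine dehydrogenase with the same molybdenum cofactor, and they oxidise aldehydes and many nitrogen-containing rings, drugs among them. Slc2a9 (GLUT9) carries urate into hepatocytes and through kidney tubules, and Slc22a12 (URAT1) is best known from the kidney, where it takes urate back from the tubule fluid.

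The 2 members Slc22a12 and Aox1 were higher in every S217879 liver than in any vehicle liver, and their promoters are shown here, with that of Aox3 as the adjacent relative of Aox1 whose groups overlapped. Each sequence is the RefSeq window on GRCm38.p6, read 5′ to 3′ along the gene, with 250 bases before the annotated start in lower case and the 50 bases from the start on in capitals. The window of Slc22a12 is chr19:6543021-6543320 on the minus strand, that of Aox1 is chr1:58029719-58030018 on the plus strand, and that of Aox3 is chr1:58112886-58113185 on the plus strand.
Slc22a12: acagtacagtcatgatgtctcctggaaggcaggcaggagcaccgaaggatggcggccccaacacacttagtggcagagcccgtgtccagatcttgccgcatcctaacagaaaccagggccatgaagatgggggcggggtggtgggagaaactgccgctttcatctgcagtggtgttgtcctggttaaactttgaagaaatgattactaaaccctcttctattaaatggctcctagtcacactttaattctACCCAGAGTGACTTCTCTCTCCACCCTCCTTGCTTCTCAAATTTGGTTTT
Aox1: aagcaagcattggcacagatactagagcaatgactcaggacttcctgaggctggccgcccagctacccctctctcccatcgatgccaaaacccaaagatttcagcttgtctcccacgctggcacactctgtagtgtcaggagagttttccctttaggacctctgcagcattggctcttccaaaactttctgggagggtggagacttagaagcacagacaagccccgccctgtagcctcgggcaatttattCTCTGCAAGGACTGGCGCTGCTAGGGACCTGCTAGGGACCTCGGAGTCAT
Aox3: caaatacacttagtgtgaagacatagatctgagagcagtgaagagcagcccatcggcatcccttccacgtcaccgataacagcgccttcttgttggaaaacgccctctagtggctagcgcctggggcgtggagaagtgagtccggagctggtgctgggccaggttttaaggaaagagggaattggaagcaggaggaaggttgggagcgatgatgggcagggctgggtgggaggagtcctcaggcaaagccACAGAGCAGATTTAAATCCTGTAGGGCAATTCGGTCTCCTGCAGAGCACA
The letters TGACNNNGC, the core of the antioxidant response element that NRF2 binds together with small MAF proteins, were searched on both strands of these windows. No match stood in the windows of the 7 members with a window in the table (Slc22a12, Slc2a9, Aox1, Aox3, Uox, Urad and Pnp), while 4071 of 32851 promoter windows of this length (12.39%) held at least 1. The window of Nqo1, a quinone reductase gene that is a classical NRF2 target, held none either, and nothing about binding of NRF2 follows from letters in 300 bases. GC content was 50% in the Slc22a12 window, 54.3% in that of Aox1 and 55% in that of Aox3.

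Levels are in TPM (a share of the library corrected for gene length) as deposited by the authors. Every library adds up to 1000000, so read depth is unknown and the spread between mice is the measure of precision used. Between 24659 and 27744 genes were above 0 in a library. Nqo1 averaged 102 ± 13.9 TPM in S217879 livers and 14.6 ± 3.52 TPM in vehicle livers (SD, n = 10 each), with no overlap between the groups. The 4 rRNA-type genes Gm23935, Gm24270, Gm42418 and Mir6236 took 14.1% to 38.1% of an S217879 library and 17.4% to 58.2% of a vehicle library, and vehicle replicates 6 and 7 stood apart with 58.2% and 50.7%. In these 2 vehicle libraries a smaller share is left for all other genes, so differences of the members whose groups overlapped are given with and without them. Differences are on the log2(TPM + 0.5) scale, S217879 minus vehicle, for the 13401 genes that averaged 1 TPM or more. Their median was -0.12 as deposited and -0.01 after median-of-ratios scaling, which gives each library a scale factor of its own, a shift of 0.11.

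The 5 hepatocyte markers Alb, Apoa1, Ttr, Tat and Cps1 summed to 32492 to 50872 TPM in S217879 livers and 26269 to 60483 TPM in vehicle livers, so the libraries carry the label's liver markers. The 7 kidney markers Umod, Slc12a1, Slc12a3, Slc34a1, Kap, Aqp2 and Cdh16 summed to 0.156 to 0.410 TPM in S217879 livers and 0.133 to 0.512 TPM in vehicle livers, with no single value above 0.346 TPM. Fat cell markers summed to at most 0.0818 TPM in S217879 livers and 0.0882 TPM in vehicle livers. Among markers of other liver cells, 0 of 6 macrophage markers were higher and 4 were lower in S217879, 0 of 5 stellate cell markers were higher and 5 were lower, 0 of 3 tested cholangiocyte markers were higher and 2 were lower, 2 of 5 endothelial markers were higher (4 with median-of-ratios scaling), and 0 of 3 tested lymphocyte markers moved in either direction (limma, Benjamini-Hochberg adjusted p under 0.05; 1 lymphocyte marker was lower at an unadjusted p under 0.05). The cholangiocyte marker Krt7 and the lymphocyte markers Cd3e and Ms4a1 averaged under 1 TPM as deposited and were not tested. Of the 5 hepatocyte markers 1, Ttr, was higher and 1, Apoa1, was lower. Over all genes 6.07% were higher and 23.5% lower (26.6% and 27.1% with median-of-ratios scaling). After rescaling without the 4 rRNA-type genes 63.1% of all genes were lower. Then 4 of 5 hepatocyte, 5 of 6 macrophage, 5 of 5 stellate, 4 of 4 cholangiocyte and 1 of 3 lymphocyte markers were lower. Of endothelial markers 2 were then higher and 1 lower, and 1 hepatocyte marker was higher. The summed level of the macrophage markers was 468 to 870.1 TPM in S217879 livers and 564 to 1109 TPM in vehicle livers, and that of the stellate cell markers was 165 to 315 TPM in S217879 livers and 202 to 372 TPM in vehicle livers. Whether the makeup of the tissue bears on the members was not tested, and in whole liver fewer cells of a type and less RNA per cell cannot be told apart.

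**Figure D1:**
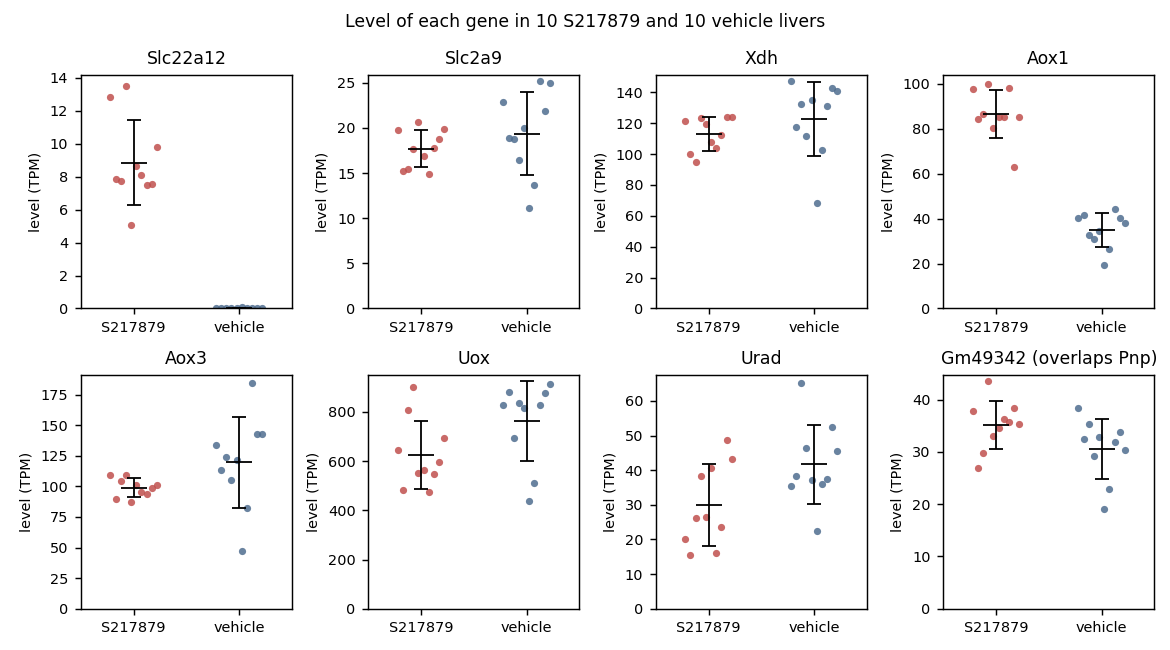
Level in TPM of 7 members and of the gene model Gm49342, which overlaps Pnp, in 10 S217879 livers (left in each panel) and 10 vehicle livers (right). Points are livers, long horizontal lines are means and bars are SD; Slc22a12 and Aox1 are the genes whose groups do not overlap.

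Of the 7 members tested, 2 were higher in S217879, Slc22a12 and Aox1, and 0 were lower, by limma with an adjusted p under 0.05 over all 13401 genes; at an unadjusted p under 0.05, 1 was lower, Urad. Over all genes tested, 6.07% were higher and 23.5% were lower by the same rule. For 2 of the 7 members every S217879 liver lay above every vehicle liver, against 1.84% of all genes, and for 0 of the 7 every S217879 liver lay below every vehicle liver, against 1.89% of all genes. Since the members were chosen with this comparison known, nothing is read from these shares. The median log2 difference of the 7 members was -0.10, against -0.12 for all genes. All 7 reached the minimum of 1 TPM, but Slc22a12 reached it through the S217879 livers alone.

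The urate transporter gene Slc22a12 (ENSMUSG00000061742, chr19:6535845-6543032 on GRCm38, minus strand) was at or near 0 in every vehicle liver and at 5.04 TPM or more in every S217879 liver. Its levels in S217879 replicates 1 to 10 were 12.8, 7.88, 7.74, 13.5, 5.04, 8.63, 8.08, 7.46, 7.53 and 9.80 TPM, against 0.0429, 0, 0.0216, 0, 0.0216, 0.0683, 0.0491, 0.0290, 0 and 0.0166 TPM in vehicle replicates 1 to 10. The lowest S217879 liver, replicate 5, had 5.04 TPM and the highest vehicle liver, replicate 6, had 0.0683 TPM, so the groups lay far apart. S217879 replicates 1 and 4 stood above the other 8 S217879 livers, and 3 vehicle livers were listed at 0. The means were 8.85 ± 2.57 TPM in S217879 and 0.0249 ± 0.0230 TPM in vehicle (SD, n = 10 each). On the log2(TPM + 0.5) scale the difference was 4.11, with a 95% interval from 3.87 to 4.35, which ranked 7 of 13401 from the highest. This value depends on the pseudocount, 6.13 with 0.1 and 3.22 with 1 in its place, and understates the change of a gene so low in vehicle; no fold is given against livers listed at 0. The kidney markers, which include transporters and channels of the nephron, were at or near 0 in both groups. All 7 together summed to at most 0.410 TPM in an S217879 liver. Which cells the Slc22a12 transcripts came from was not tested.

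Slc22a12 lies inside the span of Nrxn2, the gene of a synaptic adhesion protein, which runs on the opposite strand (chr19:6418731-6544169, plus). Of the 2263 exonic bases of Slc22a12, 682 (30.14%) are also exonic in Nrxn2, and 633 of the 2309 windows of 50 bases in its transcripts occur in Nrxn2 transcripts. Nrxn2 itself had 3.20 to 5.76 TPM in S217879 livers (median 5.08) and 0.58 to 1.14 TPM in vehicle livers (median 0.91), a log2 difference of 1.94, and its groups did not overlap either. A second gene of the minus strand, the non-coding Gm14964 (chr19:6530711-6532011), annotated as antisense to Nrxn2 and 3.8 kb from Slc22a12, had 10.98 to 19.04 TPM in S217879 livers (median 15.3) and 1.69 to 3.56 TPM in vehicle livers (median 2.47), a log2 difference of 2.34. The 3 genes given here were therefore higher in each S217879 liver than in any vehicle liver. Neighbours within 100 kb were taken only if they averaged 1 TPM or more over all 20 livers, so lower genes of the locus are not covered. Nrxn2 averaged 4.83 TPM in S217879 livers and 0.89 TPM in vehicle livers, so it reached this minimum through the S217879 livers. The library kit keeps strand, but whether strand entered the counting is not stated in the sources used, and without strand reads of the shared stretch cannot be told apart. In vehicle livers Nrxn2 was measured at up to 1.14 TPM while Slc22a12 did not exceed 0.0683 TPM. How much of either gene's level comes from the shared stretch was not tested.

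**Figure D2:**
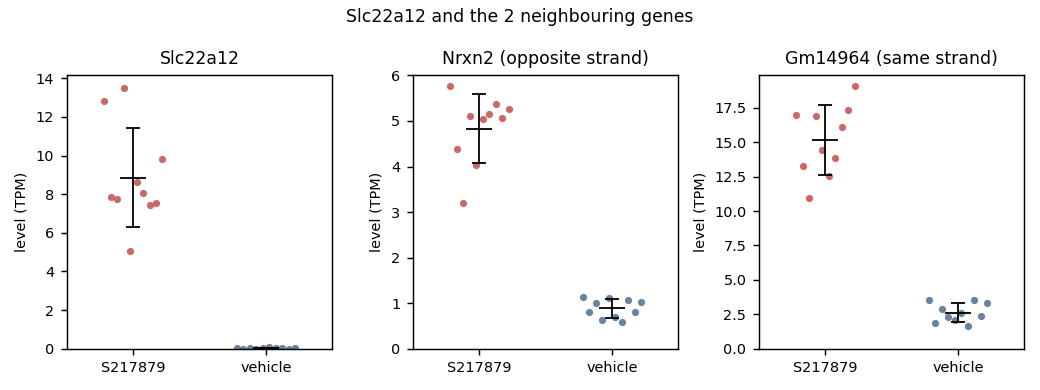
Level in TPM of Slc22a12 and of its neighbours Nrxn2 (opposite strand, overlapping) and Gm14964 (same strand) in 10 S217879 livers (left) and 10 vehicle livers (right). Points are livers, long horizontal lines are means and bars are SD; in each panel the groups do not overlap, and the lowest S217879 livers are at 5.04, 3.20 and 10.98 TPM.

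Slc2a9 (ENSMUSG00000005107, chr5:38349273-38503143, minus strand), the urate carrier of hepatocytes, had overlapping groups. Its lowest, median and highest levels were 14.9, 17.7 and 20.6 TPM in S217879 livers and 11.2, 19.4 and 25.2 TPM in vehicle livers. The log2 difference was -0.10 (95% interval -0.35 to 0.15) as deposited and 0.02 with median-of-ratios scaling, which puts Slc2a9 close to the median of all genes on either scale. The lowest vehicle values, 11.2 and 13.6 TPM, belonged to vehicle replicates 6 and 7, and without these libraries the difference was -0.24. The S217879 livers lay inside the range of the vehicle livers. Slc2a9 was thus the more abundant of the 2 urate transporter genes in each group, at 17.7 ± 2.07 TPM in S217879 livers and 19.4 ± 4.63 TPM in vehicle livers (SD, n = 10 each), beside 8.85 and 0.0249 TPM for Slc22a12.

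Aox1 and Aox3 stand side by side on chromosome 1 on the plus strand (Aox1, ENSMUSG00000063558, chr1:58029931-58106413; Aox3, ENSMUSG00000064294, chr1:58113130-58200698), 6.7 kb apart, followed by Aox4 and Aox2. Aox1 had 97.8, 84.3, 86.7, 100.2, 80.5, 85.3, 85.2, 98.0, 62.8 and 85.2 TPM in S217879 replicates 1 to 10, against 40.5, 41.8, 32.9, 31.0, 34.7, 19.5, 26.4, 44.3, 40.4 and 38.1 TPM in vehicle replicates 1 to 10. The groups did not overlap, although S217879 replicate 9 at 62.8 TPM was well below the other 9 S217879 livers. The means were 86.6 ± 10.8 TPM in S217879 and 34.9 ± 7.72 TPM in vehicle (SD, n = 10 each), a ratio of 2.48. The log2 difference was 1.32 (95% interval 1.06 to 1.58), ranking 106 of 13401 from the highest, and ran from 1.18 to 1.44 over every alternative tried. Aox1 and Aox3 transcripts had no window of 50 bases in common.

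Aox3, the other aldehyde oxidase gene of mouse liver, had 87.3, 99.9 and 109.7 TPM (lowest, median and highest) in S217879 livers and 47.1, 123 and 184.3 TPM in vehicle livers. The S217879 range lay within the vehicle range, and the 10 S217879 livers were all below the vehicle median. The log2 difference was -0.20 (95% interval -0.51 to 0.11) as deposited, -0.08 with median-of-ratios scaling and -0.41 without vehicle replicates 6 and 7, the livers with 47.1 and 82.3 TPM. Aox2 and Aox4, the other genes of the cluster, known from the nose and the skin, were at 0.0537 and 0.00135 TPM on average in S217879 livers and at 0.0722 and 0.00314 TPM in vehicle livers. Kctd18, which flanks Aox1 on its other side at 11.0 kb, averaged 1.07 TPM in S217879 livers and 1.19 TPM in vehicle livers. Aox1 and Aox3 were thus the 2 genes of the cluster with levels that could be compared.

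The ratio of Aox1 to Aox3 inside a library does not depend on that library's scale. Aox1 made up 46.5 ± 3.18% of the sum of Aox1 and Aox3 in S217879 livers and 23.2 ± 2.94% in vehicle livers (SD, n = 10 each). The range was 38.8% to 51.0% in S217879 livers and 19.4% to 29.2% in vehicle livers, without overlap. Vehicle replicate 6, in which both genes were lowest, had the highest vehicle share, and S217879 replicate 9 had the lowest S217879 share.

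**Figure D3:**
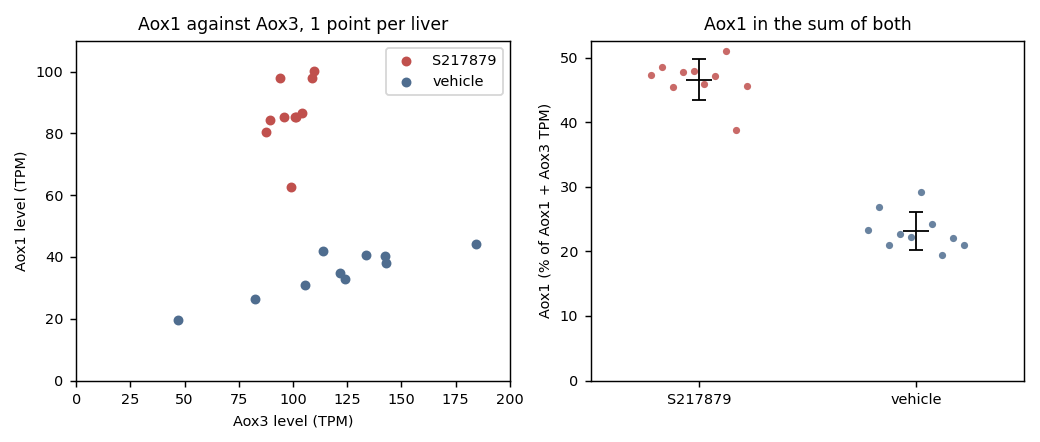
Left, Aox1 level against Aox3 level in TPM, 1 point per liver, S217879 in red and vehicle in blue; right, Aox1 as a percent of the sum of Aox1 and Aox3 per liver, with means (long lines) and SD (bars). The S217879 livers lie above the vehicle livers at like Aox3 levels, at 38.8% to 51.0% against 19.4% to 29.2%.

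Xdh (ENSMUSG00000024066, chr17:73883895-73950196, minus strand), which makes urate, had levels of 94.7, 115.7 and 124.2 TPM (lowest, median and highest) in S217879 livers and 68.1, 131.8 and 147.5 TPM in vehicle livers. Every S217879 liver was below the vehicle median and inside the vehicle range. The log2 difference of Xdh was -0.09 (95% interval -0.35 to 0.16) as deposited, 0.02 with median-of-ratios scaling and -0.23 without vehicle replicates 6 and 7, so its sign depended on the scale. Of the 3 oxidase genes, Xdh varied least after median-of-ratios scaling, with a coefficient of variation of 6.39% in S217879 and 8.13% in vehicle, against 14.2% and 10.6% for Aox1 and 8.30% and 20.8% for Aox3. Of 9296 windows of 50 bases in Xdh transcripts, 892 also occur in transcripts of other genes, and how reads that match several genes were counted is not stated in the sources used.

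Uox (ENSMUSG00000028186, chr3:146570426-146632305, plus strand), whose product breaks urate down, was the most abundant of the 7 members in both groups. Its lowest, median and highest levels were 476.0, 579.5 and 899.9 TPM in S217879 livers and 437.9, 826.9 and 915.1 TPM in vehicle livers. Only S217879 replicate 4 was above the vehicle median, and the groups overlapped. The log2 difference was -0.28 (95% interval -0.57 to 0.02) as deposited, -0.16 with median-of-ratios scaling and -0.44 without vehicle replicates 6 and 7. These were the vehicle livers with 437.9 and 512.1 TPM, the other 8 being at 695.2 TPM or more.

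Urad (ENSMUSG00000075543, chr5:147314984-147322440, minus strand), the decarboxylase of the last step to allantoin, was the most variable of the 7 members among S217879 livers. Its levels were 15.6, 26.3 and 48.6 TPM (lowest, median and highest) in S217879 livers and 22.6, 37.9 and 65.0 TPM in vehicle livers. Its groups overlapped, and 6 of 10 S217879 livers were below the vehicle median. The coefficient of variation was 39.7% in S217879 livers and 27.5% in vehicle livers. The log2 difference was -0.53 (95% interval -0.98 to -0.08) as deposited, -0.41 with median-of-ratios scaling and -0.65 without vehicle replicates 6 and 7. Urah, which encodes the enzyme between Uox and Urad, had 171 ± 22.7 TPM in S217879 livers and 145 ± 31.4 TPM in vehicle livers (SD, n = 10 each). Its log2 difference of 0.26 was not called as deposited (limma, adjusted p = 0.1386) and reached 0.37 with median-of-ratios scaling (adjusted p = 2.77e-06). It was 0.11 when the 4 rRNA-type genes were left out before rescaling (limma, adjusted p = 0.0282) and 0.096 without vehicle replicates 6 and 7 (limma, adjusted p = 0.302), so the size of the Urah difference depended on the scale. Urah shares 177 exonic bases (12.4%) with C330022C24Rik on the opposite strand.

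Ratios between enzyme genes of the same route overlapped between the groups. The log2 ratio of Xdh, which makes urate, to Uox, which removes it, was -2.44 ± 0.30 in S217879 livers and -2.63 ± 0.19 in vehicle livers (SD, n = 10 each). The log2 ratio of Urad to Uox was -4.47 ± 0.51 in S217879 livers and -4.21 ± 0.36 in vehicle livers. In both groups Uox was therefore several times as abundant as Xdh per unit length, and the spread between livers was larger than the difference between the group means for each ratio.

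No value is given for Pnp. The row ENSMUSG00000021871 is annotated as Gm49342 (chr14:50944517-50963136 on GRCm38), and 718 of its 750 exonic bases (95.73%) are also exonic in Pnp on the same strand and 32 in Pnp2. Gm49342 had 27.0, 35.6 and 43.5 TPM (lowest, median and highest) in S217879 livers and 19.1, 32.1 and 38.4 TPM in vehicle livers. Reads of Pnp cannot be told apart from reads of Gm49342 over this stretch, and the groups overlapped. The log2 difference of Gm49342 was 0.21 (95% interval -0.03 to 0.45) as deposited and 0.33 with median-of-ratios scaling. It was smaller, at 0.081, without vehicle replicates 6 and 7 and, at 0.069, when the 4 rRNA-type genes were left out before rescaling. Pnp2, a second phosphorylase gene beside Pnp, averaged 0.800 TPM in S217879 livers and 0.857 TPM in vehicle livers and was too low to be tested.

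**Figure D4:**
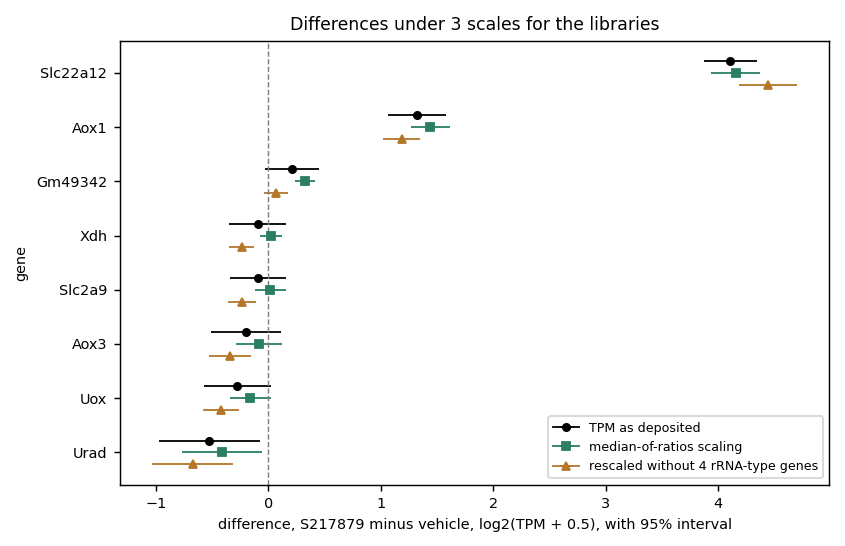
Log2 difference, S217879 minus vehicle, of 7 members and Gm49342 with its 95% interval under 3 scales for the libraries: TPM as deposited (black), median-of-ratios scaling (green) and a rescaling that leaves out the 4 rRNA-type genes (orange). Slc22a12 and Aox1 stay far right of 0 under all 3, while Xdh and Slc2a9 lie at 0.02 under one scale and at -0.24 under another.

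The scale given to the libraries moved the difference of every member, and it changed the calls of the 5 members nearest to the median of all genes. Aox1 went from 1.32 as deposited to 1.44 with median-of-ratios scaling and 1.18 with the rescaling that left out the rRNA-type genes. Slc22a12 went from 4.11 to 4.16 and 4.44. When the 4 rRNA-type genes were left out before rescaling, the log2 differences of Slc2a9, Xdh, Aox3, Uox and Urad were -0.24, -0.24, -0.34, -0.42 and -0.67, on a scale where 63.1% of all genes were called lower. Slc22a12 and Aox1 were higher under each scale. Relative to the median of all genes as deposited, Slc2a9 and Xdh stood at 0.02, Aox3 at -0.08, Uox at -0.16 and Urad at -0.41, and Slc22a12 and Aox1 at 4.23 and 1.44.

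Within a group, livers were compared for pairs of members on log2 values after median-of-ratios scaling, with 9 relations computed in all. The members' choice used the difference between groups and not this spread. Aox1 and Aox3 had a Pearson r of 0.62 among the S217879 livers (permutation p = 0.0421, adjusted 0.1896) and a Spearman rho of 0.59 (permutation p = 0.0806, adjusted 0.5908, n = 10). Without the 2 livers farthest from the Aox1 median, r was 0.81. Among the vehicle livers the same pair had r = 0.68 (permutation p = 0.0225, adjusted 0.1896) and rho = 0.52 (permutation p = 0.1313, adjusted 0.5908, n = 10), and r fell to 0.21 without the 2 farthest livers, so the relation rested on those. None of the 9 relations passed after adjustment. Uox and Urad, which act in the same route, had r = 0.19 and rho = 0.16 among S217879 livers and r = -0.05 and rho = -0.07 among vehicle livers. Aox1 and Xdh had r = 0.05 and rho = 0.02 among S217879 livers and r = 0.24 and rho = 0.25 among vehicle livers. Slc2a9 and Uox had r = -0.21 and rho = 0.12 among S217879 livers and r = 0.28 and rho = 0.21 among vehicle livers. The adjusted permutation p of these 6 relations was at least 0.8002 for r and 1 for rho. Slc22a12 and Aox1, a pair added after the values were seen, had r = 0.35 and rho = -0.01 among S217879 livers (permutation p = 0.3134 and 1, adjusted 0.8002 and 1). The livers with most Slc22a12 were thus not shown to be those with most Aox1. On TPM as deposited, where livers share the scale of their library, 3 of the relations passed, all among vehicle livers: Aox1 with Aox3 at r = 0.94, Aox1 with Xdh at 0.89 and Slc2a9 with Uox at 0.88.

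In S217879 replicate 9 Aox1 was lowest of its group and Slc22a12 was not, a contrast that rests on 1 liver. This liver had the lowest level of its group for Aox1 (62.8 TPM), for Nqo1 (74.9 TPM), for Gclc, whose product starts glutathione synthesis (335 TPM), for the efflux pump gene Abcc4 (39.7 TPM) and for the efflux pump gene Abcg2 (28.9 TPM). For Slc22a12 it had 7.53 TPM, above replicates 5 and 8, and for Urad it had the highest level of its group, 48.6 TPM. Slc17a1 (11.6 TPM), Nt5e (3.47 TPM), Hprt (99.8 TPM), Mocos (53.9 TPM) and Slc28a1 (2.89 TPM), all called higher in S217879, were not lowest in this liver. Without replicate 9 the log2 difference of Aox1 was 1.37 and that of Slc22a12 was 4.13.

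The genes whose levels followed each member most closely were taken by Pearson's r over the 20 livers after median-of-ratios scaling and after each group's mean was removed, as a description of points that share libraries and scale factors. For Aox1 these were Gclc (r = 0.93), Cdk8, a kinase of the Mediator complex (0.93), and Ugdh, which makes the glucuronic acid donor for drug conjugation (0.91). Without S217879 replicate 9 these values were 0.85, 0.85 and 0.79. For Slc22a12, whose spread comes from the S217879 livers, they were lower, with Abcc5, an organic anion efflux pump, at 0.82, Ttc17 at 0.71 and Luzp1 at 0.68. For Slc2a9 they were Pcsk4 (0.89), Proc, the anticoagulant protein C (0.88), and Cyp2d22, a cytochrome P450 (0.87). For Aox3 they were Cth, which makes cysteine from cystathionine (0.90), Klkb1, plasma prekallikrein (0.89), and Desi1 (0.86). For Xdh, Fbxw5 (0.78) and the lysosomal mannosidase gene Man2b1 (0.77) were among them. For Uox they were Aadac, a microsomal esterase (0.91), Mtch2 (0.89) and Bnip3l (0.89), and for Urad they were Nnmt, which methylates nicotinamide (0.86), Hist1h4i (0.81) and Tbl2 (0.76). Members were seldom this close to each other, the highest value among pairs of members being 0.60 for Slc2a9 with Xdh and the lowest -0.58 for Aox1 with Urad.

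The rest of the pathway was taken from 7 lists of 66 genes, none of them members, of which 49 were tested. Of these, 7 were higher and 7 lower in S217879 (limma, adjusted p under 0.05 over all genes), where 6.07% of all genes were higher and 23.5% lower, and the median log2 difference was 0.00 against -0.12 for all genes. After median-of-ratios scaling the split was 22 higher and 9 lower, where 26.6% of all genes were higher and 27.1% lower. After rescaling that left out the 4 rRNA-type genes, 52 genes of the lists were tested, of which 8 were higher and 27 lower, where 7.15% of all genes were higher and 63.1% lower. Leaving out vehicle replicates 6 and 7 gave 7 higher and 19 lower of 49, where 5.56% of all genes were higher and 54.4% lower. The counts of each list below are on TPM as deposited and are read against 6.07% and 23.5%, with the counts on the other scales beside them. Among other urate and organic anion transporter genes 3 of 9 tested rose and 0 fell (limma; 3 were lower at an unadjusted p under 0.05), with 5 higher and 1 lower after median-of-ratios scaling and 3 higher and 4 lower after the rescaling. Abcc4, a pump that exports urate and conjugates, had 129 ± 39.1 TPM in S217879 livers and 3.03 ± 0.78 TPM in vehicle livers (SD, n = 10 each), a log2 difference of 5.13 (limma, adjusted p = 1.24e-13). Abcg2, the main urate exporter of the gut, rose by 0.74 to 36.7 ± 6.69 TPM in S217879 livers, against 22.3 ± 5.59 TPM in vehicle livers (limma, adjusted p = 7.02e-05), and the sodium phosphate transporter gene Slc17a1 rose by 0.38. The log2 difference of Abcg2 was 0.54 without vehicle replicates 6 and 7. Slc22a12 was thus not the only urate transporter gene that was higher, whereas the kidney anion transporter genes Slc22a6 and Slc22a8 did not exceed 0.0122 and 0.0624 TPM in S217879 livers and 0 and 0.0369 TPM in vehicle livers.

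The molybdenum cofactor is shared by Xdh, Aox1 and Aox3, and Mocos encodes the sulfurase that adds the sulfur these enzymes need. Of 5 tested cofactor genes, 1, Mocos, rose on TPM as deposited, with 46.5 to 63.9 TPM (median 53.9) in S217879 livers and 22.7 to 43.9 TPM (median 37.7) in vehicle livers, without overlap, and a log2 difference of 0.58 (limma, adjusted p = 0.000125). The log2 difference of Mocos was 0.46 without vehicle replicates 6 and 7. By limma 0 of the 5 fell, also at an unadjusted p under 0.05. With median-of-ratios scaling 4 of the 5 were higher, Mocs1, Mocs2 and Gphn besides Mocos, and with the rescaling that left out the rRNA-type genes 1 was, Mocos, with 0 lower on either scale. Of the other molybdenum enzyme genes 0 of 3 tested rose or fell, likewise with 0 at an unadjusted p under 0.05, with 285 ± 36.7 TPM in S217879 livers and 291 ± 64.1 TPM in vehicle livers for Mtarc1, and 97.9 ± 11.0 and 90.7 ± 20.6 TPM for Mtarc2 (SD, n = 10 each), both amidoxime-reducing enzymes of mitochondria. With median-of-ratios scaling 2 of these 3, Suox and Mtarc2, were called higher, and with the rescaling 2, Suox and Mtarc1, were called lower, so no direction is given for them.

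Of the purine breakdown list without Urah, 1 of 9 tested genes rose and 3 fell (limma). The list holds nucleotidase genes without regard to which nucleotides their products cut. Of these 9, 2 were higher and 3 were lower with median-of-ratios scaling, and with the rescaling 1 of 11 tested was higher and 7 were lower. Nt5e, the cell-surface nucleotidase that makes adenosine from AMP, had 3.91 ± 0.90 TPM in S217879 livers and 1.94 ± 0.50 TPM in vehicle livers, a log2 difference of 0.85 (limma, adjusted p = 4.97e-07). The cytosolic nucleotidase gene Nt5c2 fell to 6.77 ± 1.15 TPM in S217879 livers, against 13.1 ± 2.10 TPM in vehicle livers (log2 difference -0.90, adjusted p = 2.73e-08 by limma), and Nt5c3b and Nt5c fell by 0.56 and 0.45. Guanine deaminase (Gda) at 0.05 and adenosine deaminase (Ada) at 0.08 were not called in either direction on TPM as deposited, and Gda was called higher with median-of-ratios scaling (limma, adjusted p = 0.0248). Of 5 salvage genes, Hprt, which returns hypoxanthine and guanine to nucleotides, rose to 114 ± 17.5 TPM in S217879 livers, against 85.2 ± 17.9 TPM in vehicle livers (log2 difference 0.44, adjusted p = 0.00834 by limma). The log2 difference of Hprt was 0.28 without vehicle replicates 6 and 7. Deoxycytidine kinase (Dck) fell by 0.40, and the lower genes of this list numbered 2 with median-of-ratios scaling and 3 with the rescaling, against 1 as deposited. Of the 13 genes of new purine synthesis 0 were called by limma (1, Pfas, was lower at an unadjusted p under 0.05), the most abundant being Paics at 0.00 and Adssl1 at -0.07. With median-of-ratios scaling 6 of these 13 were called higher and 0 lower, and with the rescaling 0 were higher and 8 lower, so the scale set their direction. Of 4 tested nucleoside transporter genes 1 rose and 3 fell, as many as with either other scale. Slc28a1, a concentrative carrier, averaged 3.15 ± 0.77 TPM in S217879 livers and 0.40 ± 0.16 TPM in vehicle livers without overlap, a log2 difference of 2.01 (limma, adjusted p = 4.01e-17). Slc28a1 reached the minimum of 1 TPM through the S217879 livers alone, with no vehicle liver above 0.698 TPM, so its call is a description. Slc28a2, Slc29a3 and Slc29a1 fell by 0.50, 0.42 and 0.35.

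**Figure D5:**
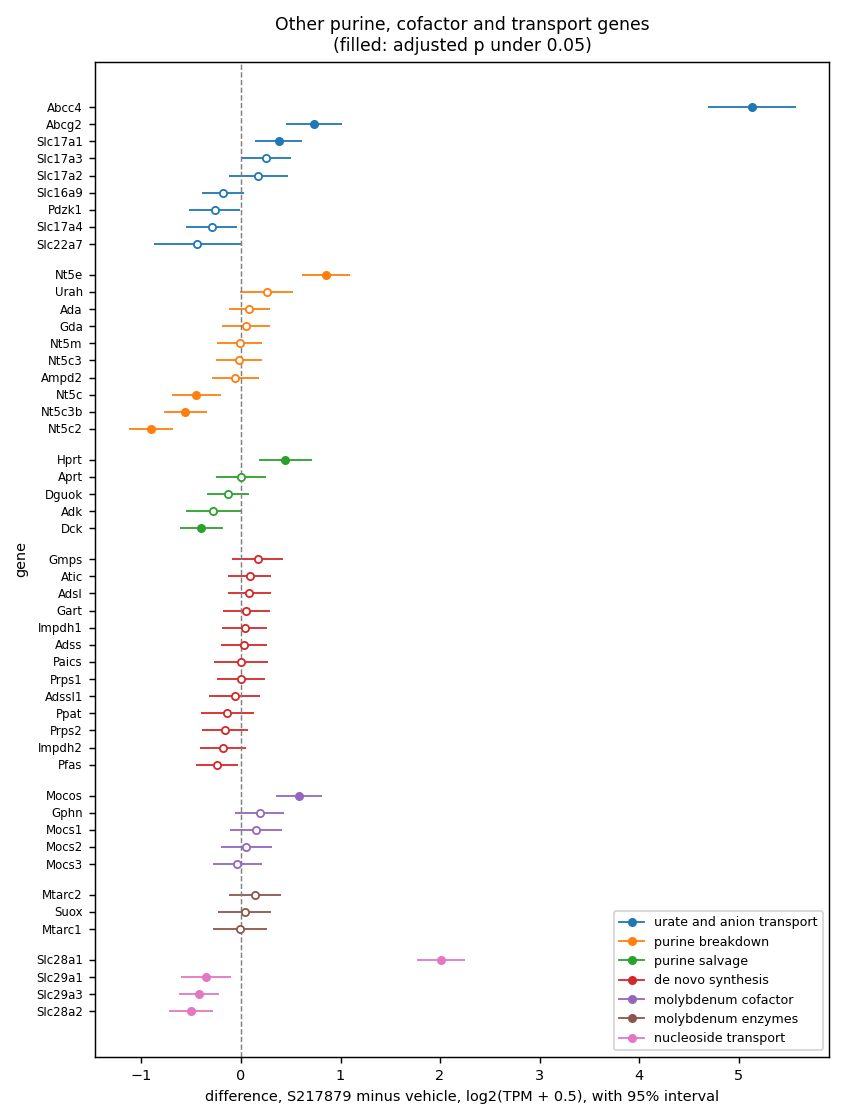
Log2 difference, S217879 minus vehicle, with 95% interval for the 49 tested genes of the 7 pathway lists, on TPM as deposited; filled points passed an adjusted p under 0.05. Abcc4 at 5.13 and Slc28a1 at 2.01 stand far to the right, and the 13 genes of new purine synthesis, all open on this scale, lie around 0.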

How the data were processed

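Livers of 10 S217879 and 10 vehicle mice were compared, grouped by the treatment label. Per the labels' protocols, total RNA from a lipid tissue kit was made into stranded, polyA-captured libraries. Per the submitters' processing notes, the build was GRCm38 and the tools were featureCounts, Subread 1.5.2, STAR 2.5.2b and Trimmomatic 0.36. Their settings and the use of strand are not stated in the sources used. Values are TPM as the authors deposited them, which keep no depth. All 20 columns were matched to samples by animal number, with 0 columns left over and 0 identical pairs. Of the identifiers, 48970 had a symbol; coordinates and overlaps are from the GENCODE annotation of GRCm38 and promoters from RefSeq.

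The comparison was fitted on log2(TPM + 0.5) in limma 3.58.1 under R 4.3.3 (eBayes with trend and robust) for genes that averaged 1 TPM or more, with Benjamini-Hochberg adjustment over all 13401 genes; fold changes on this scale understate changes of low genes. The steps were tested on simulated data. Relations used two-sided permutation tests of 100000 resamples. Members, lists and tests were chosen with earlier results of these data known. Genes named were all members, of each list the 2 highest and 2 lowest called genes (or the 2 most abundant), 10 genes in any case (4 of them also named by their list), and 3 genes most like each member (1 of those like Xdh, and 1 kidney marker, are not reported here); Slc17a1, Nt5c, Slc29a1, Pfas, Slc22a6, Slc22a8, Nqo1, Gclc and the neighbours were named after their values were seen. Alternatives were pseudocounts of 0.1 and 1, no minimum and a minimum of 5 TPM, median-of-ratios scaling, rescaling without the 4 rRNA-type genes, and leaving out each library in turn or vehicle replicates 6 and 7 together. The relation of Slc22a12 with Aox1 and the likeness without S217879 replicate 9 were added after seeing the data. The relation of Xdh with Pnp could not be computed because Pnp was matched to no row.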

Additional observations from a re-analysis of the deposited data

Results flagged for a closer look

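Among 22 sets of 10 livers examined (each member, Gm49342 and the ratios, in each group), 2 held a liver far from the other 9, with a gap to the nearest value, over the whole range, above Dixon's 95% critical value for 10 samples; chance alone gives about 1 in 20. Aox1 in S217879 replicate 9 was 62.8 TPM, with the next lowest S217879 liver at 80.5 TPM, a gap of 0.473 of the range. The Aox1 percent of the sum of Aox1 and Aox3 in S217879 replicate 9 was 38.8%, with the next lowest at 45.4%, a gap of 0.543 of the range. Both flags hold the Aox1 level of this liver, so they are not independent. The same liver was lowest of its group for Nqo1 (74.9 TPM), Gclc (335 TPM), Abcc4 (39.7 TPM) and Abcg2 (28.9 TPM). It was not lowest for Slc22a12 (7.53 TPM), Slc17a1 (11.6 TPM), Nt5e (3.47 TPM), Hprt (99.8 TPM), Mocos (53.9 TPM) or Slc28a1 (2.89 TPM).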

How the results depend on the processing

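No paired analysis was possible because the labels number each animal separately and share no replicate number between the groups. Slc22a12 and Aox1 were higher in every alternative in which they were tested; a minimum of 5 TPM removed Slc22a12, leaving 1 member higher. Members lower numbered 1 with that minimum, 1 with median-of-ratios scaling, 5 when rescaled without the rRNA-type genes, 5 without vehicle replicates 6 and 7, and 0 to 3 without 1 library (3 without vehicle replicate 6). Pathway genes lower numbered 3, 9, 27 and 19 under those settings and 6 to 15 without 1 library (15 without vehicle replicate 6), and 22 were higher with median-of-ratios scaling. Over all genes, the lower calls numbered 1642 with the higher minimum, for which the number of genes tested is not given here. They numbered 9113 of 14445 (63.1%) when rescaled and 7307 of 13428 (54.4%) without vehicle replicates 6 and 7. Leaving out 1 library gave 2637 to 5194 (5194 without vehicle replicate 6). Of 13389 genes, 3624 (27.1%) fell and 3562 (26.6%) rose under median-of-ratios scaling. Direction turned for genes near 0: Paics to -0.14 when rescaled, -0.18 without vehicle replicates 6 and 7 and -0.094 to 0.037 without 1 library; Adssl1 to 0.050 and Mtarc1 to 0.11 with median-of-ratios scaling (Mtarc1 -0.083 to 0.030 without 1 library); Mtarc2 to -0.0022 and -0.021, Gda to -0.088 and -0.084 (-0.043 to 0.081 without 1 library) when rescaled and without vehicle replicates 6 and 7; and Ada to -0.027 when rescaled. The cause was not tested. Within groups, 3 relations passed on TPM as deposited and 0 to 1 without 1 library. There, r turned to 0.57 for Uox and Urad in vehicle (-0.18 to 0.40 without 1 library), -0.077 for Aox1 and Xdh in S217879 (-0.016 to 0.17) and 0.21 for Slc2a9 and Uox in S217879 (-0.28 to 0.055); Aox1 and Xdh in vehicle ran from -0.087, without vehicle replicate 6, to 0.50. TPM keeps no depth, so the reads behind low values such as Slc22a12 in vehicle are unknown.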
